A study of Mus musculus with 27 samples.

Results

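The genes described here are 9 transcripts of oligodendrocytes, the glial cells that wrap axons in myelin: Mbp, Mog, Mag, Cldn11, Mobp, Cnp, Mal, Ermn and Ugt8a. They were chosen by name as markers of that cell, and all 9 were found among the 53412 gene identifiers of the minocycline table and the 55421 of the enrichment table. All 9 also passed the filter on low counts, which kept 14579 and 15921 genes. The counts come from CD11b+ cells, and these genes are markers of a cell type other than the one that was sorted. Which cells the transcripts came from was not tested.

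The cells were sorted by flow cytometry from the prefrontal cortex (PFC) or hippocampus (HC) of mice whose strain is given as C57BJ6. CD11b, an integrin on microglia and other myeloid cells, was the only marker named for the sort, and ages and sexes are not given in the sources used here. In the minocycline experiment the groups were naive mice (NAIVE, 2 libraries in PFC and 2 in HC), mice under chronic unpredictable mild stress, a schedule of changing mild stressors used as a depression model (CUMS, 2 in PFC and 3 in HC), and stressed mice given the tetracycline antibiotic minocycline (CUMS_M, 3 in PFC and 3 in HC). In the enrichment experiment every mouse was stressed, and the groups were CUMS with vehicle (VEH) and CUMS with environmental enrichment (EE), with 3 libraries each in PFC and HC. The totals ran from 7867323 (PFC NAIVE 1) to 15278538 counts per library in the first table and from 19519117 to 23902719 in the second. The labels do not say that replicates are separate animals, so p-values measure the spread between these samples.

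Myelin is a stack of oligodendrocyte membrane held together by a few abundant proteins and by galactolipids. Transcription factors such as Sox10 and Olig2 set up the oligodendrocyte lineage, and the genes of compact myelin and of its lipids are switched on as the cell matures. Microglia carry CD11b, live beside myelin, prune it during development and take up its debris. In sorted bulk RNA, fewer cells of a type and less RNA per cell cannot be told apart.

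Within myelin the 9 genes have different places. Mbp encodes myelin basic protein, which seals the cytoplasmic faces of compact myelin, and Mobp another basic protein of myelin. Mal encodes a lipid raft protein of myelin membranes, and Cldn11 the claudin of the tight junctions between myelin layers. Mog and Mag encode surface glycoproteins, Mog on the outermost layer and Mag on the layer next to the axon. Cnp encodes a phosphodiesterase of the cytoplasmic channels, Ermn a protein that binds actin in late oligodendrocytes, and Ugt8a the transferase that makes galactosylceramide. In GRCm38 (GENCODE M21) Ermn lies at chr2:58045113-58052864, Mal at chr2:127633226-127656695, Ugt8a at chr3:125865271-125938619, Cldn11 at chr3:31149920-31164324, Mag at chr7:30899176-30914873, Mobp at chr9:120149707-120181484, Cnp at chr11:100574904-100591729 and Mog at chr17:37010743-37023398. Few of their exon bases are shared with other genes: 1.2% of Mobp with Gm38642 on the same strand, 4.2% of Cnp with Dnajc7 and 6.5% of Ermn with Galnt5 on the opposite strand.

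The 9 genes were high and low in largely shared libraries, so promoters are shown for 4 whose start sites are well placed. For Mog, Cldn11, Mal and Ermn the RefSeq start site (GRCm38.p6) is also the outermost start of the gene in GENCODE, and the 250 bases before it are printed on the gene's own strand. They cover chr17:37023399-37023648 (minus strand), chr3:31149670-31149919 (plus), chr2:127656696-127656945 (minus) and chr2:58052865-58053114 (minus). Capitals mark a match to ACAAAG or ACAATG, core letters of sites bound by SOX factors, on either strand.
Mog: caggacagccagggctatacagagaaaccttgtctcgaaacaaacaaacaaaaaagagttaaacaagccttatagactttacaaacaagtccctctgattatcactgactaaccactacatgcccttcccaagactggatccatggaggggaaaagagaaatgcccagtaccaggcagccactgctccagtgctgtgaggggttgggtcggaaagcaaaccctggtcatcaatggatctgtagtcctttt
Cldn11: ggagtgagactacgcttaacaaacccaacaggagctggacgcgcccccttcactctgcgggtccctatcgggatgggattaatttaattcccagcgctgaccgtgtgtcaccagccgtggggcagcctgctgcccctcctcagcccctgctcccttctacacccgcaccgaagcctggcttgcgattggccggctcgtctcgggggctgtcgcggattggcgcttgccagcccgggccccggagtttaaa
Mal: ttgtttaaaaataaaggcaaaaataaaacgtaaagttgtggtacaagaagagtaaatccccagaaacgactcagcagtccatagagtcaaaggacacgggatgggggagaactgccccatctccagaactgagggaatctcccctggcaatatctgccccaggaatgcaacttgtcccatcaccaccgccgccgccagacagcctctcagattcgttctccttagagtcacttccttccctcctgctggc
Ermn: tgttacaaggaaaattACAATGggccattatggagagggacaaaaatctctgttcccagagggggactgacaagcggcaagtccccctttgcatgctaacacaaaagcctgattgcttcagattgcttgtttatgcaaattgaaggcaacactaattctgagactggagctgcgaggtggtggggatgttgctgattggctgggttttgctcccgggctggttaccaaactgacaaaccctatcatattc
Of these 4 windows, 1 holds a match, an ACAATG in Ermn. Promoters were found for 8 of the 9 genes, and ACAAAG occurred before 3 of them (37.5%: Mag, Mobp and Cnp) against 16.5% of all 32851 windows of the same length. ACAATG occurred before 1 of 8 genes (12.5%) against 10.7% of windows. CATCTG and CAGCTG, core letters of sites for basic helix-loop-helix factors such as Olig2, occurred before 0 of 8, against 14.4% and 13.0% of windows. The search used both strands, and Mag has 3 windows where each of the other genes found has 1. A gene was counted if any of its windows held a match, while the shares of all promoters count single windows. These are letter matches in short windows, which say nothing of whether a factor binds.

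The tables had to be checked before regions could be compared. In the minocycline experiment's table, 2 genes were under 1 CPM (depth-scaled counts, with TMM-scaled library totals) in every PFC library and over 10 CPM in every HC library, and 3 genes the reverse, against 0 and 0 in the enrichment table. Hgs, an endosomal sorting protein used by most cells, ran from 0.0 to 0.262 CPM in PFC and from 98.5 to 112 in HC, while all libraries of the enrichment table lay between 81.5 and 108. Trf, the transferrin gene that oligodendrocytes express strongly, ran from 99.3 to 122 CPM in PFC and from 1823 to 2289 in HC, against 1351 to 2268 over the enrichment libraries. Of the exon bases of Trf, 63.5% are shared with Gm20425 on the same strand. Both genes were chosen after their values were seen, and none of the 9 members has such a gap. In the PFC libraries of the enrichment table Hgs ran from 81.55 to 107.8 CPM and Trf from 1467 to 2268. What else differed between the PFC and HC columns of the minocycline table was not tested. Within that table it cannot be told apart from region.

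Choroid plexus genes go against the region labels in 7 libraries. The choroid plexus, the epithelium of the brain ventricles, borders the hippocampus and not the prefrontal cortex. Its 6 listed genes summed to 561.5 CPM or more in all 8 HC libraries of the minocycline table and to 3.34 or less in PFC, except 608 in PFC CUMS_M 3. In the enrichment table the sum was 724, 733, 1136 and 231 CPM in PFC VEH 2, PFC VEH 3, PFC EE 2 and PFC EE 3, and 0.66 and 1.54 CPM in HC VEH 1 and HC VEH 2. PFC and HC are therefore the labelled regions throughout, and comparisons that rest on these libraries are given with and without them.

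The level of the 9 genes was low beside that of the sorted cell. Per library, the 12 listed microglia genes summed to between 36810 and 59400 CPM, and the 9 oligodendrocyte genes to between 207 and 816 CPM. Per kilobase of exon, Cnp was highest of the 9 in both tables, with a median over libraries of 39.2 CPM per kb in the minocycline table and 26.1 in the enrichment table. Mag followed with 17.2 and Mbp with 14.8 in the minocycline table, in the order Mbp (12.8), Mag (10.4) in the enrichment table. Ugt8a (1.49 and 0.359) and Ermn (1.61 and 0.920) were lowest.

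The genes fell into 2 groups by how far they moved between libraries. From the lowest to the highest library, Cnp spanned 2.88-fold, Mbp 2.59-fold and Mag 3.84-fold in the minocycline table, and 2.01-fold, 2.59-fold and 2.27-fold in the enrichment table. The other 6 spanned more: in the minocycline table from 7.05-fold for Mobp to 23.2-fold for Cldn11, and in the enrichment table from 7.04-fold for Mobp to 26.5-fold for Ugt8a. Cnp, Mag and Mbp together made up 69.9% of the summed CPM of the 9 genes in PFC NAIVE 1 and 90.2% in HC VEH 2, the ends of the range over all 27 libraries. Their share was low in the libraries where the sum was high. These genes were set apart by their narrow span over the same libraries, so the share is no separate result. Cnp, Mbp and Mag also had the highest median CPM of the 9 in both tables. In the minocycline table these were 142.5, 125 and 69.95 CPM, with Mal next at 36.2. In the enrichment table they were 94.83, 108.3 and 42.44 CPM, with Mobp next at 17.92. Whether the span follows from the level was not tested.

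Summed over the 9 genes, the group means ordered as HC CUMS (572 ± 70.0 CPM), HC CUMS_M (517 ± 259), PFC CUMS (499 ± 29.6), PFC NAIVE (474 ± 238), HC NAIVE (394 ± 14.3) and PFC CUMS_M (276 ± 50.5), each with its SD. Neighbours in this order overlapped in range, apart from the last: the PFC CUMS_M libraries reached 321 CPM at most and the HC NAIVE libraries began at 384. In the enrichment table, which was scaled separately, the order was HC EE (449.9 ± 115), PFC VEH (290.0 ± 64.3), PFC EE (284 ± 73.4) and HC VEH (239 ± 30.7). The HC EE libraries (352 to 577 CPM) lay above all PFC VEH libraries (218 to 342) and above the HC VEH libraries (207 to 269), and overlapped those of PFC EE (223 to 366). The other neighbours in this order overlapped.

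**Figure D1:**
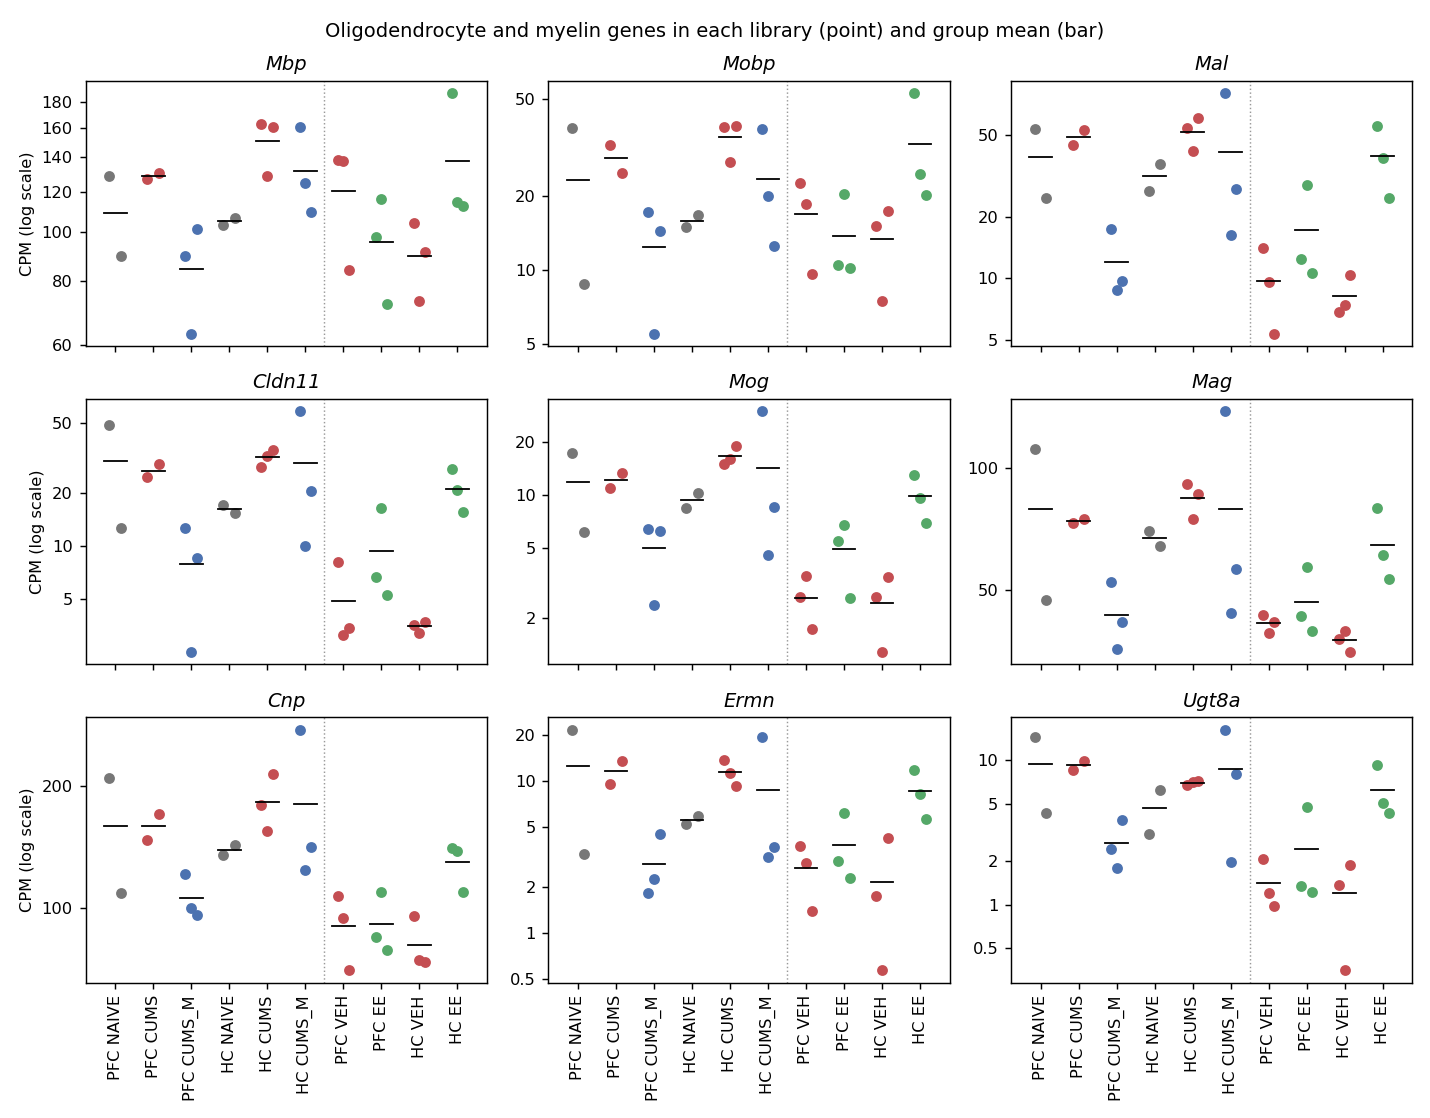
Level of each of the 9 genes in CPM on a logarithmic axis, by group, with 1 point per library and a bar at the group mean (grey NAIVE, red CUMS or VEH, blue CUMS_M, green EE). The dotted line separates the minocycline table (left) from the enrichment table (right), and HC EE 1 is the highest library of the enrichment table for all 9 genes.

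No member passed the test in any comparison. With edgeR's quasi-likelihood test and Benjamini-Hochberg adjustment over all tested genes, 0 of 9 had an adjusted p under 0.05 in each of the 13 contrasts. DESeq2 called members in 1 of them, HC EE against VEH, and unadjusted p-values under 0.05 are given with each contrast. The members share 1 cell type and are not independent of each other, so counts of 9 are described beside the same counts over all genes.

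The first comparison asks what enrichment changed in stressed mice, and the widest separation of the 9 genes was here, in HC. All 9 were higher in the 3 HC EE libraries than in the 3 HC VEH libraries, with no overlap for any of them, as were 9.66% of all tested genes. The median log2 fold change of the 9 was 1.99, from 0.62 for Mbp to 2.59 for Cldn11, against -0.03 over all genes. The edgeR adjusted p ran from 0.0715 to 0.392, so none passed, as none of the 15921 genes did (0.0% called, smallest adjusted p 0.0603).

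Among the genes of compact myelin, Cldn11 was at 3.58, 3.21 and 3.72 CPM in HC VEH 1, 2 and 3 and at 27.2, 20.8 and 15.5 in HC EE 1, 2 and 3. The VEH libraries lay close together and far below the lowest EE library. The log2 fold change was 2.59 ± 0.45 (standard error of the fit, n = 3 and 3, edgeR adjusted p = 0.0715). Mal stood at 6.83, 7.39 and 10.4 CPM in VEH and 55.4, 38.8 and 24.6 in EE, a change of 2.27 ± 0.45 (edgeR adjusted p = 0.0811). Mobp was less apart, with 15.1, 7.48 and 17.3 CPM in VEH and 52.6, 24.7 and 20.2 in EE (1.29 ± 0.46, edgeR adjusted p = 0.334). Mbp had 104, 73.1 and 91.3 CPM in VEH and 187, 114 and 112 in EE, where HC EE 1 stood far above the other EE libraries (0.62 ± 0.25, edgeR adjusted p = 0.392).

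Of the surface glycoproteins, Mog was at 2.64, 1.28 and 3.42 CPM in VEH and 13.0, 9.63 and 6.95 in EE, a log2 fold change of 2.02 ± 0.43 (edgeR adjusted p = 0.0816). Mag was more abundant and shifted less, with 37.9, 39.7 and 35.1 CPM in VEH and 79.6, 60.9 and 53.1 in EE (0.78 ± 0.16, edgeR adjusted p = 0.0790). Its VEH libraries lay close together, and none reached the lowest EE library. Cnp, the phosphodiesterase, showed 95.5, 74.3 and 73.2 CPM in VEH and 141, 138 and 109.6 in EE (0.68 ± 0.17, edgeR adjusted p = 0.146).

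Ugt8a, the galactolipid enzyme, had 1.37, 0.352 and 1.89 CPM in VEH and 9.34, 5.09 and 4.29 in EE, a log2 fold change of 2.38 ± 0.63 (edgeR adjusted p = 0.147). Ermn, the actin-binding protein of late oligodendrocytes, had 1.74, 0.572 and 4.18 CPM in VEH and 11.8, 8.22 and 5.62 in EE (1.99 ± 0.60, edgeR adjusted p = 0.201). These 2 are the least abundant members, and HC VEH 2 was the lowest library of the table for both. HC EE 1 was highest of the EE libraries for all 9 genes.

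Under other tests of the same libraries some members passed. All 9 had an unadjusted edgeR p under 0.05, as did 10.4% of genes. DESeq2 called 7 of 9 higher (all but Mobp and Mbp), against 2.43% of genes higher. A fit of only the 6 HC libraries of the comparison called 6 of 9 higher (Cnp, Mal, Ugt8a, Mag, Cldn11 and Mog), against 1.45% of genes higher, and the fit without the filter on low counts called 4 (Cnp, Ugt8a, Mag and Mog), against 0.97% of genes.

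Other genes of the lineage were shifted by about the same amount. In a list of 24 further genes of mature oligodendrocytes, 24 were above 0, 19 had groups that did not overlap and 0 passed edgeR's threshold, with 18 at an unadjusted p under 0.05 and 15 called by DESeq2; the median was 1.95. Cryab, a small heat shock protein of mature oligodendrocytes and astrocytes, had the smallest adjusted p of that list (2.14 ± 0.34, edgeR adjusted p = 0.0603), followed by Car2, a carbonic anhydrase (1.96 ± 0.36, edgeR adjusted p = 0.0748). Trf, in contrast, had overlapping groups and a log2 fold change of 0.26 ± 0.16 (edgeR adjusted p = 0.652).

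Most of the lineage's transcription factors were also above 0. Olig1 was at 4.01, 2.64 and 4.79 CPM in VEH and 16.1, 11.4 and 12.5 in EE, a log2 fold change of 1.80 ± 0.34 (edgeR adjusted p = 0.0748). The change was 2.00 ± 0.62 for Olig2 and 1.79 ± 0.46 for Sox10 (edgeR adjusted p = 0.218 and 0.142), and neither had overlapping groups. Of 9 tested factors 8 were above 0, with a median of 1.79. Pdgfra, the growth factor receptor of oligodendrocyte precursors, overlapped between groups at 0.566, 0.836 and 0.459 CPM in VEH and 1.53, 2.43 and 0.394 in EE, and the 8 tested precursor genes had a median of 1.18.

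Markers of other cell types also stood higher in the HC EE libraries. The 12 astrocyte genes summed to 658, 517 and 637 CPM in HC VEH and to 1192, 827 and 1179 in HC EE, with a median log2 fold change of 1.16 and 11 of 12 without overlap. The 6 choroid plexus genes summed to 0.66, 1.54 and 212 CPM in HC VEH and to 1983, 511 and 1116 in HC EE. Endothelial and mural genes had a median of 0.46, neuronal genes 0.10, and the 12 microglia genes -0.05, with microglia sums of 40030 to 48880 CPM in VEH and 38970 to 46900 in EE. The part of the astrocyte and choroid plexus shifts in the result for the 9 genes was not tested. Among 18 myeloid genes of lipid and myelin debris handling, the median was 0.09, and 4 had groups that did not overlap: Apoe (0.90), Axl (0.84), Gpnmb (3.09) and Plin2 (0.53), all higher in EE, with edgeR adjusted p from 0.112 to 0.334; DESeq2 called Apoe and Axl. They are named because their groups did not overlap, after their values were seen, and the other genes of that list overlapped. Of all 15921 tested genes, 1538 were higher and 1012 lower in EE without overlap, and DESeq2 called 2.43% higher. The 4 of 18 are a description only.

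Without the 6 libraries of the enrichment table whose choroid plexus genes go against the label, HC EE was compared with HC VEH 3 alone, and that library was assumed to vary as the others do. All 9 genes stayed higher, with log2 fold changes from 0.61 (Mbp) to 2.52 (Cldn11) and a median of 1.04 in place of 1.99. In that fit, chosen after the data were seen, edgeR called 5 of 9 (Cnp, Ugt8a, Mag, Cldn11 and Mog), against 5.82% of genes. Leaving out 1 library at a time moved the median between 1.53 and 2.34 and called 0 members each time.

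**Figure D2:**
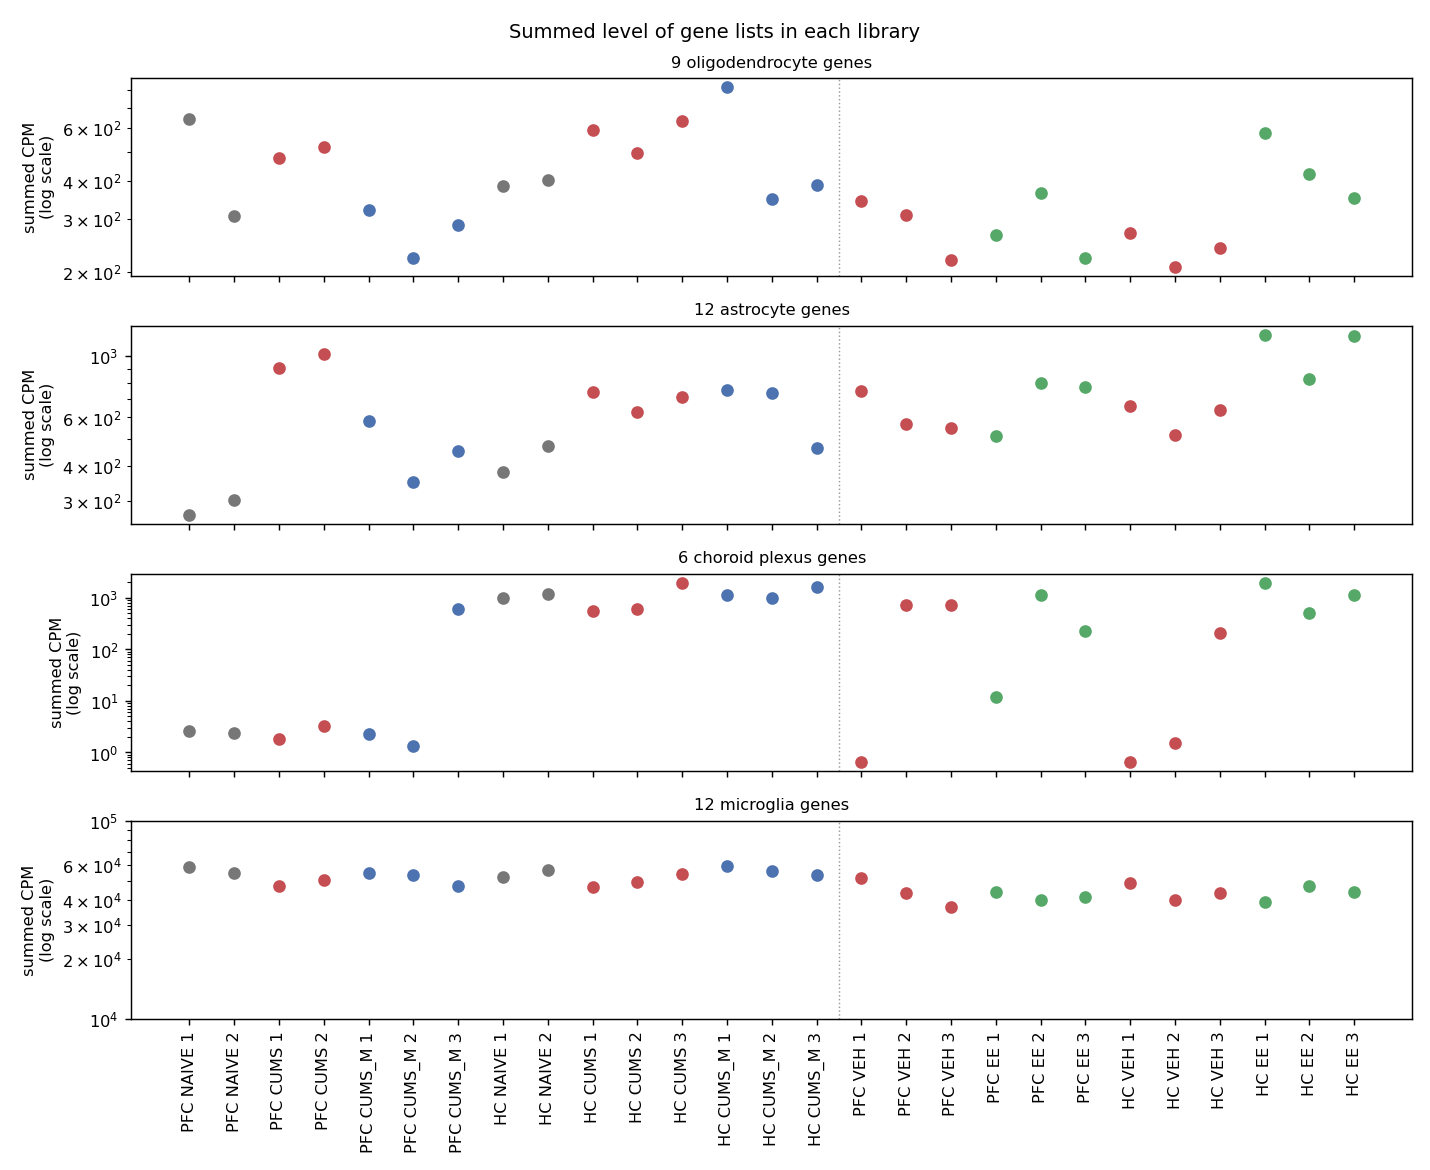
Summed CPM (logarithmic axes) of the 9 oligodendrocyte genes and of the astrocyte, choroid plexus and microglia lists in each of the 27 libraries, coloured by treatment as grey NAIVE, red CUMS or VEH, blue CUMS_M and green EE. The microglia sum stays between 36810 and 59400 CPM, and the choroid plexus sum spans from 0.644 to 1983 CPM within the enrichment table (right of the dotted line).

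In the PFC the EE and VEH libraries overlapped for all 9 genes. Of all 15921 genes, 764 were higher and 699 lower in EE without overlap. Of the 9 genes, 7 were above 0 and 2 below (Mbp and Mobp). Their median log2 fold change was 0.52 against -0.02 over all genes. By edgeR 0 of 9 passed (0.0% of genes), 2 had an unadjusted p under 0.05 (Cldn11 and Mog, against 4.25% of genes), and DESeq2 called 0. Cldn11 was at 8.08, 3.12 and 3.44 CPM in PFC VEH 1, 2 and 3 and 6.64, 16.3 and 5.25 in PFC EE 1, 2 and 3 (0.95 ± 0.43, edgeR adjusted p = 0.986). Mog was at 2.63, 3.46 and 1.72 CPM in VEH and 5.43, 6.77 and 2.601 in EE (0.93 ± 0.42, edgeR adjusted p = 0.986). For both genes PFC EE 2 was the highest of the 6 libraries and PFC EE 3 lay within the VEH range. For Cldn11, PFC EE 1 (6.64 CPM) lay within that range too, so only PFC EE 2 stood above it.

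Mbp and Mobp lay below 0. Mbp went from 139, 138 and 84.0 CPM in VEH to 97.7, 116 and 72.2 in EE (-0.33 ± 0.25, edgeR adjusted p = 0.986), and Mobp from 22.6, 18.5 and 9.65 to 10.5, 20.4 and 10.2 (-0.30 ± 0.46, edgeR adjusted p = 0.993). Mal (0.84 ± 0.44), Ugt8a (0.79 ± 0.61), Ermn (0.52 ± 0.59), Mag (0.17 ± 0.16) and Cnp (0.011 ± 0.17) had log2 fold changes above 0. Sox10 was the factor without overlap between groups among the named ones, at 1.88, 1.63 and 1.21 CPM in VEH and 3.42, 6.58 and 2.35 in EE (1.39 ± 0.46, edgeR adjusted p = 0.986), while Olig1 (0.36 ± 0.34), Olig2 (0.64 ± 0.61) and Pdgfra (-0.12 ± 0.70) overlapped. PFC VEH 2, PFC VEH 3, PFC EE 2 and PFC EE 3 carry choroid plexus genes; with PFC EE 1 and PFC VEH 1 alone, 8 of the 9 genes were below 0 and Mog above (1.04), with a median of -0.33. Without PFC EE 2 alone the median was -0.00035. Same-numbered VEH and EE libraries deviated together here. Within these pairs Mog was higher in EE in 3 of 3 and Mbp lower in 3 of 3, while the other 7 genes differed in direction between pairs. The same count over all genes was not made, so the agreement of Mog and Mbp over 3 pairs is no result about the members. With the replicate number as a block over all 12 libraries of the enrichment table, HC included, edgeR called 0 of 9 (adjusted p = 0.976 for Mog and Mbp). A block of the PFC pairs alone was not fitted.

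The effect of enrichment was set against region in a test of the difference itself. The log2 fold change was larger in HC than in PFC for all 9 genes, by 0.61 (Mag) to 1.64 (Cldn11), with a median of 1.43. By edgeR 0 of 9 passed (adjusted p = 0.998 for each, 0.0% of genes called), 6 of 9 had an unadjusted p under 0.05 (Cnp, Mal, Mobp, Mag, Cldn11 and Mbp) against 4.21% of genes, and DESeq2 called 0. A difference between the regions was not shown. Without the 6 libraries named above, edgeR called 2 of 9 (Cnp and Cldn11), against 2.72% of genes.

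**Figure D3:**
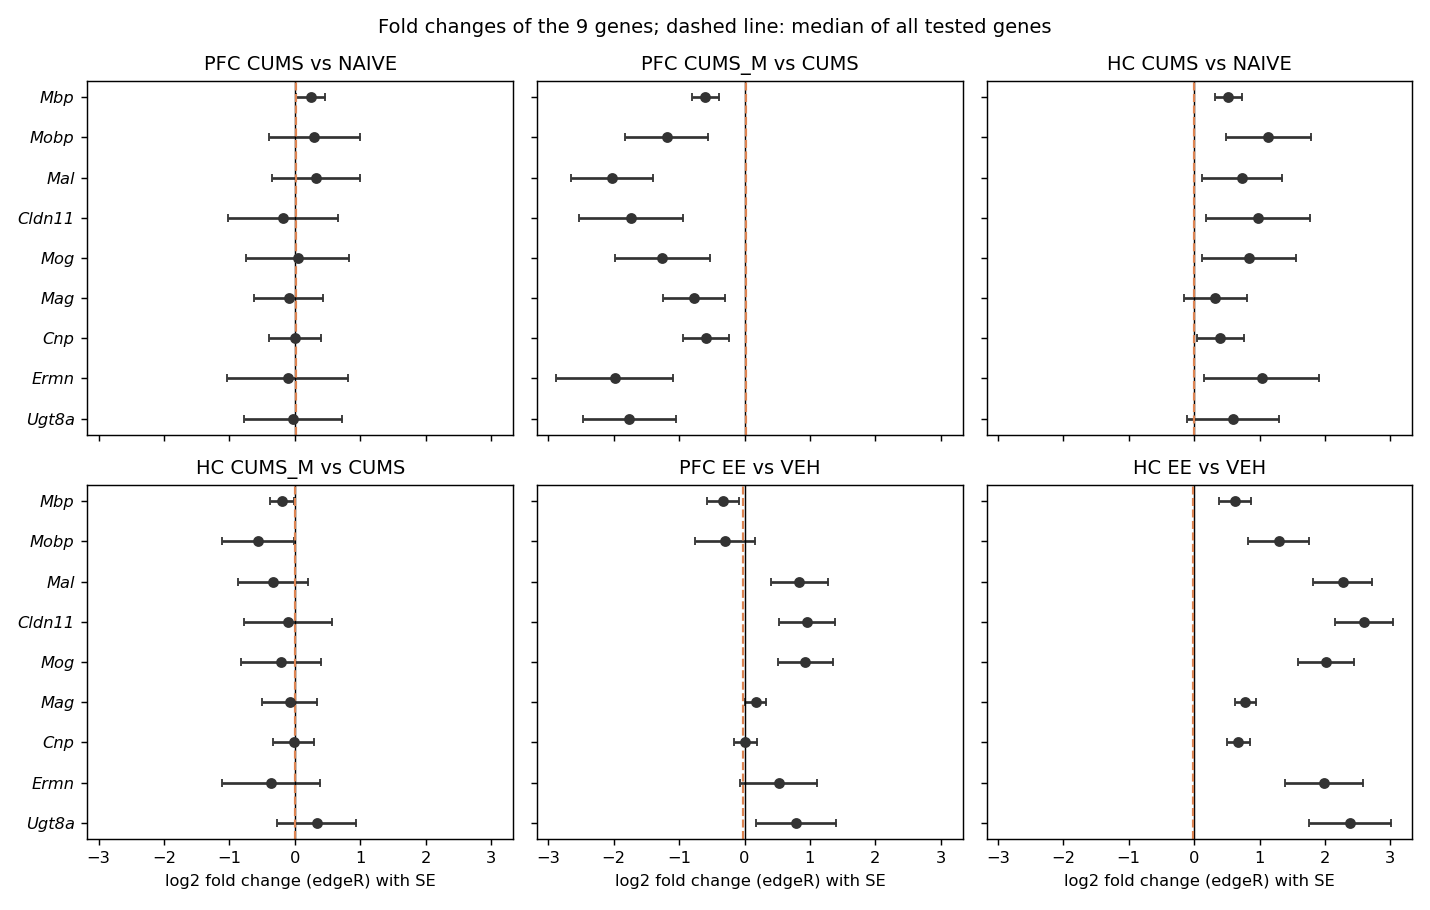
Log2 fold change of each of the 9 genes (edgeR, first group over second) with its standard error in 6 comparisons; the dashed line is the median of all tested genes. All 9 points lie above 0 in HC EE vs VEH and HC CUMS vs NAIVE and below 0 in PFC CUMS_M vs CUMS.

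The minocycline experiment asks what stress changed and whether minocycline altered it. In the PFC all 9 genes were lower in the 3 CUMS_M libraries than in the 2 CUMS libraries, with no overlap for any, as were 12% of all genes. The median log2 fold change was -1.26, from -0.59 for Cnp to -2.02 for Mal, against 0.02 over all genes. By edgeR 0 of 9 passed (adjusted p from 0.552 to 1.0, 0.0206% of genes called), 4 had an unadjusted p under 0.05 (Ermn, Mal, Ugt8a and Mbp, against 5.54% of genes), and DESeq2 called 0.

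Mal was at 53.3 and 24.8 CPM in PFC NAIVE 1 and 2, at 44.9 and 53.1 in CUMS and at 17.4, 8.81 and 9.68 in CUMS_M (-2.02 ± 0.63 for CUMS_M over CUMS, n = 3 and 2, edgeR adjusted p = 0.552). Both naive libraries also lay above all CUMS_M libraries. Cldn11 was at 48.2 and 12.6 CPM in NAIVE, 24.5 and 29.0 in CUMS and 12.6, 2.50 and 8.55 in CUMS_M (-1.74 ± 0.80, edgeR adjusted p = 0.931). Its naive libraries lay on either side of both CUMS libraries. Mobp was at 37.9 and 8.75 CPM in NAIVE, 32.3 and 24.8 in CUMS and 17.2, 5.48 and 14.4 in CUMS_M (-1.19 ± 0.63). Mbp was at 128 and 89.6 CPM in NAIVE, 127 and 131 in CUMS and 89.8, 63.0 and 101.2 in CUMS_M (-0.60 ± 0.20, edgeR adjusted p = 0.566).

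Mog was at 17.4 and 6.16 CPM in NAIVE, 10.9 and 13.4 in CUMS and 6.38, 2.38 and 6.19 in CUMS_M (-1.26 ± 0.73). Mag was at 111 and 47.2 CPM in NAIVE, 73.0 and 74.7 in CUMS and 52.4, 35.8 and 41.6 in CUMS_M (-0.77 ± 0.48). For both glycoproteins the CUMS libraries agreed closely and PFC NAIVE 1 was the highest of the 7. Cnp followed with 209 and 109 CPM in NAIVE, 147 and 170.5 in CUMS and 121, 99.6 and 95.9 in CUMS_M (-0.59 ± 0.36).

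Ermn was at 21.6 and 3.33 CPM in NAIVE, 9.55 and 13.4 in CUMS and 1.84, 2.26 and 4.45 in CUMS_M (-1.99 ± 0.89, edgeR adjusted p = 0.899). Ugt8a was at 14.51 and 4.31 CPM in NAIVE, 8.55 and 9.93 in CUMS and 2.42, 1.79 and 3.84 in CUMS_M (-1.76 ± 0.71, edgeR adjusted p = 0.748). PFC CUMS_M 2 was the lowest library of the table for 7 of the 9 genes, all but Ermn and Cnp. A fit of only the 5 libraries compared called 3 of 9 lower (Ermn, Mal and Mag), against 0.5% of genes lower, and the fit without the filter on low counts called 1 (Mbp), against 0.687% of genes.

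Most other listed genes of the lineage also lay below 0. In the list of 24 mature oligodendrocyte genes 23 were below 0 and 19 did not overlap, with a median of -1.62; edgeR called 0, DESeq2 called 1, and 13 reached an unadjusted p under 0.05. Sox10 (-2.02 ± 0.75), Olig2 (-1.75 ± 0.76) and Olig1 (-1.01 ± 0.61) did not overlap, and Pdgfra, at 0.308 and 0.557 CPM in CUMS and 0.967, 0 and 0 in CUMS_M, did.

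Astrocyte genes were lower in the same libraries, from sums of 905 and 1014 CPM in CUMS to 583, 351 and 455 in CUMS_M (median -1.35, 11 of 12 without overlap), and endothelial and mural genes had a median of -1.80 (9 of 12 without overlap, 1 called). The neuronal genes had a median of -1.12, with 10 of 12 below 0 and 7 without overlap. The microglia genes had a median of 0.09, and the lipid handling genes one of -0.01. Choroid plexus genes were at 608 CPM in PFC CUMS_M 3 and at 3.34 or less in the other 4 libraries. The part of these shifts in the result was not tested. Over leave-outs of single libraries, PFC CUMS_M 3 included, the median of the 9 stayed between -1.49 and -0.94.

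In the PFC, stress alone gave no common direction. CUMS against NAIVE gave 4 genes above 0 and 5 below, all overlapping, and a median of -0.00071 against 0.02 over all genes. Of all 14579 genes, 3525 were higher and 2825 lower in CUMS without overlap. By edgeR 0 of 9 passed (0.816% of genes called), DESeq2 called 0, and 0 reached an unadjusted p under 0.05. The median moved with single libraries, and the naive libraries differ: PFC NAIVE 1 lay above both CUMS libraries for 8 genes (all but Mbp) and PFC NAIVE 2 below both for all 9. Without PFC NAIVE 1 the median was 0.995, and without PFC NAIVE 2 it was -0.53. Pdgfra had 0 counts in both naive libraries and 0.308 and 0.557 CPM in CUMS, and 2 genes listed with the precursors, Bcan (3.13 ± 0.45, edgeR adjusted p = 0.00996) and Ptprz1 (2.65 ± 0.54, edgeR adjusted p = 0.0416), rose. The astrocyte list was higher in the same libraries, from sums of 267 and 301 CPM in NAIVE to 905 and 1014 in CUMS (7 of 12 genes called). Endothelial and mural genes were higher too, from sums of 94.4 and 116 CPM to 192 and 240.2 (median 1.65, 12 of 12 above 0, 3 called). The 12 microglia genes had a median of -0.18, with 10 below 0 and 2 above. Of these 12, 8 were lower and 1 higher in CUMS without overlap, 5 had an unadjusted edgeR p under 0.05 and 0 were called. The fit of only the groups compared called Bcan and not Ptprz1 (edgeR adjusted p = 0.0111 and 0.109). The part of these lists in the result was not tested.

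Against NAIVE, PFC CUMS_M was lower for all 9 genes, with a median of -1.21. Groups did not overlap for 2 genes (Mal and Ugt8a), against 11.4% of genes lower without overlap. By edgeR 0 of 9 passed (adjusted p from 0.310 to 0.565, 0.0892% of genes called), 4 had an unadjusted p under 0.05 (Ermn, Mal, Ugt8a and Cldn11), against 14.0% of genes, and DESeq2 called 0. The median was -0.20 without PFC NAIVE 1 and -1.40 without PFC CUMS_M 3. The comparison shares the CUMS_M libraries with the one against CUMS, so the pair is not independent.

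In the HC the 9 genes were all higher in the 3 CUMS libraries than in the 2 NAIVE libraries, with no overlap, as were 10.3% of all genes. The median log2 fold change was 0.73, from 0.32 for Mag to 1.13 for Mobp, against -0.01 over all genes. By edgeR 0 of 9 passed (adjusted p = 1.0 for each after rounding, 0.0% of genes called), 1 had an unadjusted p under 0.05 (Mbp, against 2.87% of genes), and DESeq2 called 0. The fit without the filter on low counts called 1 (Mbp), against 0.0687% of genes.

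Mobp was at 14.9 and 16.8 CPM in HC NAIVE 1 and 2, at 38.1, 27.6 and 38.6 in CUMS and at 37.7, 20.04 and 12.5 in CUMS_M (1.13 ± 0.65 for CUMS over NAIVE, n = 3 and 2). Mbp was at 103 and 106 CPM in NAIVE, 163, 128 and 161 in CUMS and 161, 125 and 109 in CUMS_M (0.52 ± 0.21). The naive libraries were close to each other for both genes and below every CUMS library. Cldn11 was at 17.0 and 15.4 CPM in NAIVE, 28.1, 32.5 and 35.0 in CUMS and 58.0, 10.1 and 20.4 in CUMS_M (0.98 ± 0.79). Mal was at 26.7 and 36.2 CPM in NAIVE, 54.1, 41.9 and 60.4 in CUMS and 80.3, 16.4 and 27.2 in CUMS_M (0.73 ± 0.62).

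Mog was at 8.42 and 10.2 CPM in NAIVE, 15.03, 16.0 and 18.9 in CUMS and 29.8, 4.53 and 8.51 in CUMS_M (0.84 ± 0.72). Mag was at 70.0 and 64.2 CPM in NAIVE, 91.3, 74.8 and 86.1 in CUMS and 138, 43.8 and 56.2 in CUMS_M (0.32 ± 0.48). HC CUMS_M 1 was the highest library of the table for both glycoproteins and HC CUMS_M 2 the lowest of the 8 HC libraries. Cnp was at 135 and 142 CPM in NAIVE, 179.7, 155 and 214 in CUMS and 276, 124 and 141 in CUMS_M (0.40 ± 0.36). Ermn was at 5.19 and 5.85 CPM in NAIVE, 13.6, 11.1 and 9.27 in CUMS and 19.3, 3.15 and 3.67 in CUMS_M (1.03 ± 0.88). Ugt8a was at 3.07 and 6.28 CPM in NAIVE, 6.74, 7.09 and 7.18 in CUMS and 16.3, 2.00 and 7.99 in CUMS_M (0.59 ± 0.70). The CUMS_M libraries of each gene reach from above all CUMS libraries to below the naive mean, except for Mbp and Mobp.

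Among the lineage's factors, Olig1 (1.15 ± 0.62), Sox10 (0.94 ± 0.74) and Olig2 (0.52 ± 0.73) did not overlap between HC CUMS and HC NAIVE. Of the 24 mature oligodendrocyte genes 22 were above 0, with a median of 0.60, and 0 passed. Astrocyte genes were again higher in the same libraries, from sums of 382 and 474 CPM in NAIVE to 741, 630 and 712 in CUMS (median 0.95). Their part in the result was not tested.

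In the HC no shift with minocycline was shown, and its direction depended on single libraries. CUMS_M against CUMS had 8 genes below 0 and 1 above (Ugt8a), all overlapping, and a median of -0.19. Of all 14579 genes, 880 were higher and 623 lower in CUMS_M without overlap. Of the 9 genes edgeR called 0 (0.00686% of all genes) and 0 reached an unadjusted p under 0.05. DESeq2 called 0 as well and gave no adjusted p for 6 of them. The median moved from -1.06 without HC CUMS_M 1 to 0.19 without HC CUMS_M 2. CUMS_M against NAIVE had all 9 above 0, a median of 0.57, and 1 gene without overlap (Mbp), against 9.54% of genes higher without overlap. There edgeR called 0 of 9 (0.0% of genes), DESeq2 called 0, and 0 reached an unadjusted p under 0.05. Without HC CUMS_M 1 that median was -0.09.

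Neither treatment contrast was shown to differ between regions. For CUMS_M against CUMS the log2 fold change was higher in HC for all 9 genes, by a median of 1.04, with 0 of 9 called by edgeR (adjusted p = 0.999 for each, 0.00686% of genes), 1 at an unadjusted p under 0.05 (Ugt8a, against 3.47% of genes) and 0 called by DESeq2. That median was 0.24 without HC CUMS_M 1, 1.46 without HC CUMS_M 2 and 1.22 without PFC CUMS_M 3. For CUMS against NAIVE the median difference was 0.61, and -0.25 without PFC NAIVE 1, with 0 of 9 called by edgeR (0.0% of genes), 0 by DESeq2 and 0 at an unadjusted p under 0.05.

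Averaged over treatments, HC was above PFC for all 9 genes in both tables, with medians of 0.27 and 0.43 on the log2 scale and overlapping libraries throughout. Of all 14579 genes of the minocycline table, 111 were higher and 71 lower in HC without overlap. Of the 15921 genes of the enrichment table, 7 were higher and 8 lower. In the minocycline table edgeR called 0 of 9 (5.1% of genes), 1 had an unadjusted p under 0.05 (Mbp, 0.27 ± 0.12, against 19.0% of genes) and DESeq2 called 0; without the filter on low counts 1 was called (Mbp, against 4.82% of genes). Other genes of the lineage did pass there: edgeR called 2 of 24 mature oligodendrocyte genes and 1 of 8 tested precursor genes, all higher in HC. Of all 14579 genes it called 500 higher and 244 lower. In the enrichment table edgeR called 0 of 9 (0.0% of genes), DESeq2 called 0, and 0 reached an unadjusted p under 0.05. Single libraries moved the medians: in the minocycline table to 0.091 without HC CUMS_M 1, 0.13 without PFC NAIVE 2, 0.68 without PFC NAIVE 1 and 0.30 without PFC CUMS_M 3, and in the enrichment table to 0.24 without HC EE 1, 0.27 without PFC VEH 3 and 0.65 without PFC EE 2. Without the 6 libraries whose choroid plexus genes go against the label, the enrichment median was 0.62, Mbp lay below 0 (-0.048), and edgeR called 0 of 9, against 11.8% of genes.

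**Figure D4:**
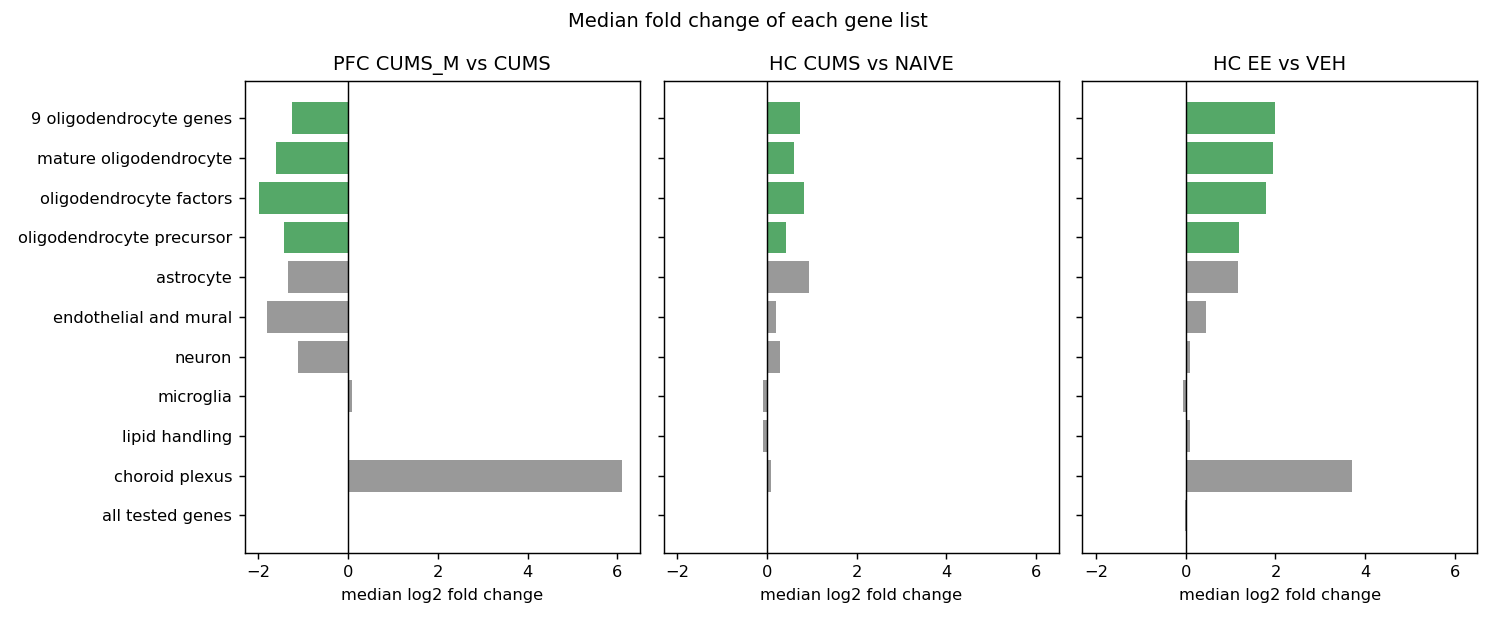
Median log2 fold change (edgeR) of each gene list in the 3 comparisons where the 9 genes did not overlap between groups; green bars are lists of the oligodendrocyte lineage. The choroid plexus median is 6.11 in PFC CUMS_M vs CUMS, where PFC CUMS_M 3 alone is high, and 3.71 in HC EE vs VEH, where 6 of 6 genes do not overlap; the microglia and lipid handling medians lie within 0.1 of 0 in these 3 comparisons.

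The genes whose pattern over the 27 libraries was most like the mean of the 9 members were found by the mean absolute difference of log2 CPM, centred within each table, over 14216 genes tested in both. Aplp1, a relative of the amyloid precursor protein, was nearest with a difference of 0.160, and Olig1 followed with 0.180. Next came Map1a, a protein that binds microtubules (0.195), Mapk8ip1, a scaffold of JNK signalling (0.207), Tmem88b (0.212), Sept4, a septin (0.212), Apod, a lipid-binding apolipoprotein (0.213), Csrp1 (0.214), Efnb3, an ephrin (0.229), and Ppp1r16b (0.230). The members' own differences ran from 0.211 for Mog, which ranked 5 among all genes, to 0.394 for Mbp, which ranked 130. The libraries share groups and sorting, and the likeness is a description with no test.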

How the data were processed

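RNA from CD11b+ cells was sequenced with a strand-specific polyA kit, per the series' design text. The values used are raw counts per gene as deposited by the authors, in 1 table for each experiment. The submitters' processing notes name Trimmomatic 0.36, STAR 2.6.1b, Picard 2.17.1, featureCounts 1.5.3, DESeq2 1.24.0 and the mouse build mm10/GRCm38; the annotation release and strand setting of the counting are not given in the sources used here. Each table was fitted as a whole with 1 mean per group: low counts were filtered (edgeR's filterByExpr, minimum count 10), libraries were scaled by TMM, and contrasts were tested with edgeR 4.0.16's quasi-likelihood test (R 4.3.3, limma 3.58.1), with Benjamini-Hochberg adjustment over all tested genes and a threshold of 0.05. CPM are these counts scaled to depth by the TMM-scaled library totals. The method was checked on simulated counts.

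Alternatives were DESeq2 1.42.0 (its test and its size factors), no filter, only the groups compared, a replicate block, and leaving out single libraries. The members and gene lists were chosen with earlier results of these data known. Named besides the 9 members, by rule, are Olig1, Olig2, Sox10 and Pdgfra, and the 10 genes most like the members. The rule also picked the genes of a list with the smallest p (up to 4 called, otherwise up to 2). Printed by this part of the rule are Cryab and Car2 (HC EE against VEH) and Bcan and Ptprz1 (PFC CUMS against NAIVE). Other genes picked by smallest p are not printed. Hgs, Trf and the lipid handling genes without overlap were added after their values were seen. One gene of the rule is not reported here. Replicate numbers do not name shared animals; same-numbered PFC VEH and EE libraries deviated together (r = 0.359, 0.198 and 0.208), which meets the bound of 0.1 set for pairing, and no other treatment contrast did.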

Additional observations from a re-analysis of the deposited data

How the results depend on the processing

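Scaling by DESeq2's size factors changed no call of a member and no direction, and shifted the median of all genes by less than 0.1 on the log2 scale. In every leave-out of a single library, 0 members were called by edgeR. Under the alternatives below the direction of all 9 genes held in HC EE against VEH, PFC CUMS_M against CUMS and HC CUMS against NAIVE; the cause of each change was not tested.

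The edgeR fit called 119 for PFC CUMS against NAIVE, 3 for PFC CUMS_M against CUMS, 13 for PFC CUMS_M against NAIVE, 0 for HC CUMS against NAIVE, 1 for HC CUMS_M against CUMS, 0 for HC CUMS_M against NAIVE, 0 for PFC EE against VEH, 0 for HC EE against VEH, 744 for HC against PFC in the minocycline table, 0 for HC against PFC in the enrichment table, 0 for the region difference in CUMS against NAIVE, 1 for the region difference in CUMS_M against CUMS and 0 for the region difference in EE against VEH. Without the filter on low counts, the count of all genes called became 402 for PFC CUMS against NAIVE, 170 for PFC CUMS_M against CUMS, 268 for PFC CUMS_M against NAIVE, 17 for HC CUMS against NAIVE, 31 for HC CUMS_M against CUMS, 8 for HC CUMS_M against NAIVE, 19 for PFC EE against VEH, 278 for HC EE against VEH, 1191 for HC against PFC in the minocycline table, 57 for the region difference in CUMS against NAIVE, 37 for the region difference in CUMS_M against CUMS and 8 for the region difference in EE against VEH. The count of members called became 1 for PFC CUMS_M against CUMS, 1 for HC CUMS against NAIVE, 4 for HC EE against VEH and 1 for HC against PFC in the minocycline table. Cnp in PFC CUMS against NAIVE turned to 0.0077. With DESeq2, the count of all genes called became 348 for PFC CUMS against NAIVE, 85 for PFC CUMS_M against CUMS, 143 for PFC CUMS_M against NAIVE, 1 for HC CUMS against NAIVE, 36 for HC CUMS_M against CUMS, 1 for HC CUMS_M against NAIVE, 17 for PFC EE against VEH, 441 for HC EE against VEH, 1173 for HC against PFC in the minocycline table, 27 for the region difference in CUMS against NAIVE and 2 for the region difference in CUMS_M against CUMS. The count of members called became 7 for HC EE against VEH. In fits of only the groups compared, the count of all genes called became 26 for PFC CUMS against NAIVE, 68 for PFC CUMS_M against CUMS, 0 for PFC CUMS_M against NAIVE, 1 for HC CUMS_M against NAIVE and 223 for HC EE against VEH. The count of members called became 3 for PFC CUMS_M against CUMS and 6 for HC EE against VEH.

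With the replicate number as a replicate block, the count of all genes called became 0 for PFC CUMS_M against CUMS, 3 for PFC CUMS_M against NAIVE, 3 for HC CUMS_M against CUMS and 2 for the region difference in CUMS_M against CUMS. Members called stayed at 0 in every contrast under the replicate block, and in PFC CUMS against NAIVE the log2 fold change turned to 0.025 for Mag, 0.11 for Cldn11, 0.073 for Cnp, 0.22 for Ermn and 0.14 for Ugt8a.

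Leaving out the 6 libraries chosen by choroid plexus level after the data were seen, a fit in which single libraries stand for PFC VEH, PFC EE and HC VEH and are assumed to vary as the others do, the count of all genes called became 334 for PFC EE against VEH, 1012 for HC EE against VEH, 2051 for HC against PFC in the enrichment table and 472 for the region difference in EE against VEH. The count of members called became 5 for HC EE against VEH and 2 for the region difference in EE against VEH. In PFC EE against VEH the log2 fold change turned to -0.013 for Mag, -0.29 for Cldn11, -0.34 for Cnp, -0.17 for Mal, -0.33 for Ermn and -0.62 for Ugt8a. In HC against PFC in the enrichment table the log2 fold change turned to -0.048 for Mbp.

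Over leave-outs of single libraries, the count of all genes called ranged from 13 to 540 for PFC CUMS against NAIVE, 0 to 9 for PFC CUMS_M against CUMS, 0 to 610 for PFC CUMS_M against NAIVE, 0 to 1 for HC CUMS against NAIVE, 0 to 5 for HC CUMS_M against CUMS, 0 to 1 for HC CUMS_M against NAIVE, 0 to 2 for PFC EE against VEH, 0 to 41 for HC EE against VEH, 292 to 983 for HC against PFC in the minocycline table, 0 to 140 for the region difference in CUMS against NAIVE and 0 to 1 for the region difference in CUMS_M against CUMS. Log2 fold changes of members that crossed 0 ranged as follows. In PFC CUMS against NAIVE they went from -0.0013 to 0.54 for Mbp, -0.53 to 0.98 for Mog, -0.59 to 0.66 for Mag, -0.85 to 1.10 for Cldn11, -0.41 to 1.72 for Mobp, -0.40 to 0.56 for Cnp, -0.13 to 0.995 for Mal, -0.91 to 1.80 for Ermn and -0.66 to 1.11 for Ugt8a. In PFC CUMS_M against NAIVE they went from -1.60 to 0.52 for Mobp. In HC CUMS_M against CUMS they went from -1.35 to 0.21 for Mog, -0.75 to 0.21 for Mag, -1.06 to 0.30 for Cldn11, -0.47 to 0.19 for Cnp, -1.26 to 0.048 for Mal, -1.73 to 0.028 for Ermn and -0.48 to 0.80 for Ugt8a. In HC CUMS_M against NAIVE they went from -0.51 to 1.04 for Mog, -0.42 to 0.53 for Mag, -0.087 to 1.28 for Cldn11, -0.066 to 0.59 for Cnp, -0.53 to 0.78 for Mal and -0.69 to 1.06 for Ermn. In PFC EE against VEH they went from -0.14 to 0.15 for Cnp, -0.00035 to 0.83 for Ermn and -0.12 to 1.16 for Ugt8a. In HC against PFC in the minocycline table they went from -0.021 to 0.68 for Mobp, -0.32 to 0.77 for Ermn and -0.18 to 0.47 for Ugt8a. In HC against PFC in the enrichment table they went from -0.088 to 0.13 for Mbp and -0.018 to 0.69 for Ermn. In the region difference in CUMS against NAIVE they went from -0.13 to 1.38 for Mog, -0.32 to 0.93 for Mag, -0.11 to 1.85 for Cldn11, -0.57 to 1.56 for Mobp, -0.15 to 0.82 for Cnp, -0.25 to 0.87 for Mal, -0.75 to 1.96 for Ermn and -0.51 to 1.26 for Ugt8a. In the region difference in CUMS_M against CUMS they went from -0.091 to 1.46 for Mog.

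PFC NAIVE, with 2 libraries and the lowest totals, limits every PFC contrast with NAIVE, and Ugt8a and Ermn rest on few counts in the enrichment table. Of 90 group levels, 2 moved by more than the SD when divided by raw totals and 4 when divided by the microglia list.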
